A study of Mus musculus with 16 samples.

Results

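Sox1, Sox2, Sox3, Sox21, Sox4, Sox11, Sox5, Sox8, Sox9 and Sox10 are the Sox genes best known from neural progenitors and the neural crest, and they were followed by name in the count and TPM (levels scaled for transcript length and library size) tables of mouse rhabdoid tumors. All 10 were in both tables, among 19 Sox genes and 24982 genes in all, and all 10 had counts in at least 1 tumor. The 16 primary tumors, each from a different Smarcb1flox/flox;R26-CreERT2 mouse, carried Smarcb1 alleles built to be deleted by tamoxifen given to the embryo. The Cre recombinase was driven from the ubiquitous Rosa26 locus, so that the model does not fix the cell type in which a tumor began, and pieces of frozen bulk tumor were sequenced. The labels put 5 tumors within the brain parenchyma, all in mice given tamoxifen at E6 and aged 30 to 180 days, and the study assigns these to its Shh subgroup. A further 6 tumors were intracranial but outside the brain, in mice aged 52 to 170 days (E6 in 1, E7 in 1 and E8 in 4). The last 5 were extracranial, in mice aged 80 to 210 days (E6 in 1 and E8 in 4). The 11 tumors outside the brain form the study's Myc subgroup. Subgroup, site and, in large part, day of tamoxifen therefore cannot be told apart, the subgroups had themselves been defined with expression profiles that include these tumors, and no normal tissue was analysed here. The extracranial tumor of mouse 43990A is intracranial in the study's own sample list, and it was kept as labelled.

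Sox proteins bind DNA through a shared HMG domain and fall into families by sequence. Sox1, Sox2 and Sox3 (the SoxB1 family) keep neural progenitors undifferentiated, and Sox21, of the related SoxB2 family, counters them. Sox4 and Sox11 (SoxC) act as precursors become neurons and also in mesenchyme. Sox8, Sox9 and Sox10 (SoxE) serve the neural crest and glia, Sox9 being required for cartilage and Sox10 for Schwann cells, melanocytes and oligodendrocytes. Sox5, of the SoxD family, works beside SoxE proteins in cartilage and glia.

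Total counts on genes lay between 17889968 and 110177889 per tumor. Smarcb1 read 58.1 TPM in the Shh tumor of mouse 29048 and 3.99 to 9.91 TPM in the other 4, and it read 6.48 to 43.7 TPM in the Myc tumors. These values count the whole gene and so cannot show whether the floxed part was lost. Markers of other cells differed between tumors. The Shh tumor of 29048 stood apart from the other Shh tumors in oligodendrocyte, astrocyte, mature neuron and choroid plexus genes (the last at 4801 TPM, beside 135 to 382 TPM in the other 4), the intracranial Myc tumor of R26P115 in choroid plexus genes (207212 TPM summed over 10 genes, of which Ttr gave 199516) and the extracranial Myc tumor of R26P123 in keratin genes and in skeletal muscle genes (695 TPM summed over 10 genes, beside at most 153 TPM in the other Myc tumors). In 29048 Ttr gave 4535 TPM of the choroid plexus sum, whereas in R26P87, the Shh tumor at 382 TPM, Otx2 gave 341 and Ttr 0.0906. Immune markers summed to between 720 and 1172 TPM in Shh and between 925 and 8859 TPM in Myc tumors, and 9 of the 10 were called lower in Shh tumors by edgeR, beside 13.1% of all genes (the rule for calls is given with the first comparison). The part of these other cells in the Sox results was not tested except where values without such a tumor are given. In bulk tissue, fewer cells of a type and less RNA per cell cannot be told apart.

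The first question was how the Sox genes differ between tumors within and outside the brain. Of the 10 genes, 7 were higher in Shh than in Myc tumors, namely Sox1, Sox2, Sox3, Sox21, Sox4, Sox11 and Sox8. None was lower, and Sox5, Sox9 and Sox10 did not pass the test. Genes were called by edgeR's quasi-likelihood test on raw counts where the adjusted p (Benjamini-Hochberg) was below 0.05 and the log2 fold change exceeded 1 in size. Over all 21854 genes tested this called 26%, with 12.9% higher and 13.1% lower in Shh tumors. The median log2 fold change of the 10 genes was 3.37, beside -0.15 over all genes tested. DESeq2, and limma on log2(TPM + 1), called the same 7. Of all genes, DESeq2 called 3147 of 21854 higher in Shh tumors and limma 4082 of 21841. edgeR called 5 of the 10 without the tumor of 29048, when Sox3 and Sox8 fell short and 11% of all genes were called higher and 11.7% lower. It again called 5 when the tumor of R26P115 was also left out, beside 14.2% of all genes higher.

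**Figure D1:**
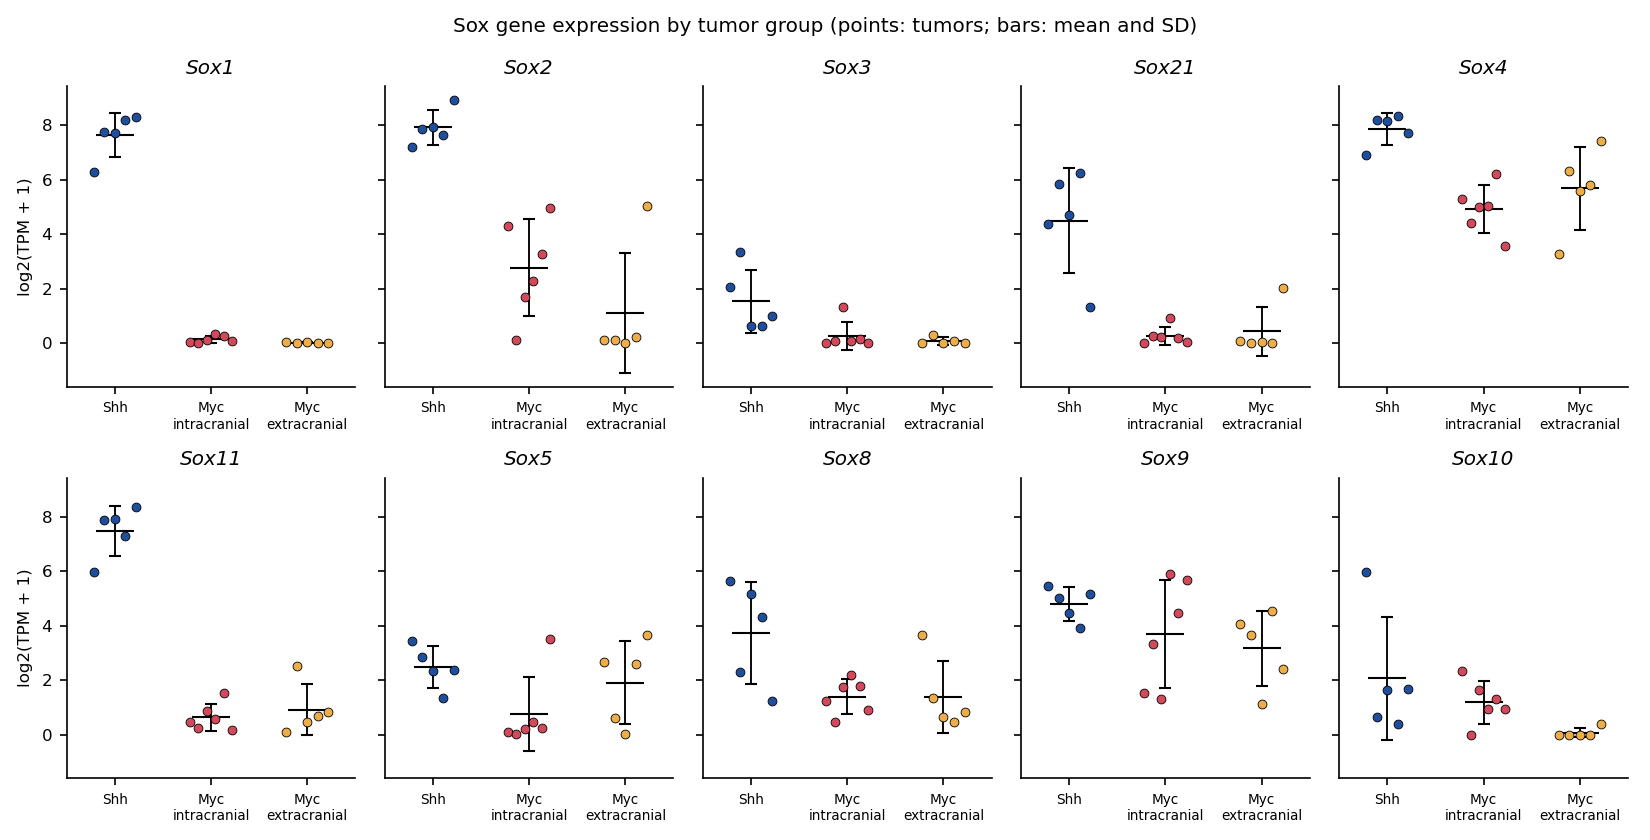
Expression of the 10 Sox genes as log2(TPM + 1) in 5 Shh, 6 intracranial Myc and 5 extracranial Myc tumors. Points are tumors and bars give the mean and SD. Sox1, Sox2 and Sox11 are higher in each Shh tumor than in any Myc tumor, as are 12.9% of all genes. The other members, Sox3, Sox21, Sox4, Sox5, Sox8, Sox9 and Sox10, overlap between Shh and Myc tumors.

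Sox1 (ENSMUSG00000096014.1, chr8:12395295-12400126 on the plus strand of GRCm38) was the member with the largest difference. It was expressed at 78.0 TPM in the Shh tumor of 29048, 213 in that of 38594A, 209 in 29050A, 293 in R26P98 and 318 in R26P87. Intracranial Myc tumors had between 0 and 0.271 TPM, with a median of 0.0827. Extracranial Myc tumors had 0.0260 TPM (43825B), 0 (43987A), 0.0361 (43990A), 0.0183 (43998A) and 0 (R26P123), each from 2 or fewer counts. All 5 Shh tumors were thus far above all 11 Myc tumors, and the lowest of them, 29048, was 287-fold above the highest Myc tumor, 29225D. The log2 fold change was 11.03 (standard error 0.80, edgeR adjusted p = 4.20e-07). It ranged from 10.87 to 11.54 when single tumors were left out. Every extracranial tumor lay at or under the floor of 3 counts per library. In counts scaled to library size, the mean of the Shh tumors was therefore at least 3481-fold above the mean of that group. Of the intracranial tumors, 3 of 6 were above the floor, with 30 counts in 29225D, 19 in 29941C and 10 in R26P170. The noncoding Sox1ot, which spans Sox1 on the same strand and may share reads with it, was higher in Shh tumors as well (log2 fold change 11.08, standard error 0.97).

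Sox2 (ENSMUSG00000074637.7, chr3:34650405-34652461, plus strand), a factor of stem cells and neural progenitors, was expressed at 148 TPM in the Shh tumor of 29048, 234 in 38594A, 245 in 29050A, 201 in R26P98 and 492 in R26P87. Those of the intracranial Myc group had between 0.0927 and 30.2 TPM (median 6.26), the highest being R26P115 and the next 43989C at 18.7 TPM. The extracranial Myc group had 0.0850 TPM (43825B), 0.0908 (43987A), 0 (43990A), 0.180 (43998A) and 31.8 (R26P123). The groups did not overlap, but Myc tumors ran from no counts to levels 4.65-fold under the lowest Shh tumor. Its log2 fold change was 4.35 (standard error 1.24, edgeR adjusted p = 0.0131). Sox2ot, within which Sox2 lies on the same strand, was also higher in Shh tumors (log2 fold change 5.11, standard error 1.23). In R26P123, 12 of 12 keratinocyte and oral epithelium markers reached 1 TPM and summed to 3288 TPM, beside 3.22 to 5.54 TPM in the other 4 extracranial tumors, where Krt5 was at 0 or up to 0.364 TPM. Markers of the pituitary, a tissue whose progenitors use Sox2, summed to 426 TPM in 43989C (4 of 14 at 1 TPM or more) and to 369 TPM in R26P170 (9 of 14), where Sox2 was at 8.62 TPM. They summed to 93.9 TPM in R26P115 and at most 21.6 TPM in the other 3 intracranial Myc tumors. Their part in the Sox2 level was not tested.

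Sox3 (ENSMUSG00000045179.9, chrX:60891366-60893430, minus strand), also used by the hypothalamus and pituitary, was the weakest of its family. Shh tumors had 3.17 TPM (29048), 9.20 (38594A), 0.567 (29050A), 0.537 (R26P98) and 1.02 (R26P87). Of the Myc tumors, 9 of 11 had 3 or fewer counts, 43987A had 0.238 TPM and 29941C had 1.5 TPM. The level in 29941C lay above those of 3 Shh tumors, so that the groups overlapped. Shh tumors were higher by a log2 fold change of 3.36 (standard error 1.18, edgeR adjusted p = 0.0381). This call was lost in 8 of the 16 fits that left out 1 tumor, with adjusted p up to 0.187 without 38594A, where the log2 fold change was 2.25.

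Sox21 (ENSMUSG00000061517.8, chr14:118233232-118237030, minus strand), which promotes the exit of progenitors towards neurons, was uneven among Shh tumors. They had 19.8 TPM (29048), 56.5 (38594A), 25.0 (29050A), 75.1 (R26P98) and 1.52 (R26P87). In intracranial Myc tumors it ran from 0 to 0.903 TPM (median 0.155). Extracranial ones had 0.0552 (43825B), 0.0118 (43987A), 0.0384 (43990A), 0 (43998A) and 3.09 TPM (R26P123). Thus R26P87, the Shh tumor with the most Sox1 and Sox2, had the least Sox21, under the Myc tumor of R26P123. For Shh against Myc, its log2 fold change was 5.92 (standard error 1.23, edgeR adjusted p = 0.00168), and it was 7.29 without R26P123.

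Sox11 (ENSMUSG00000063632.6, chr12:27334264-27342574, minus strand), a factor of newborn neurons, was expressed at 62.4 TPM in the Shh tumor of 29048, 233 in 38594A, 244 in 29050A, 157 in R26P98 and 330 in R26P87. In the intracranial Myc tumors it ran from 0.140 to 1.89 TPM (median 0.441). The extracranial ones had 0.0868 TPM (43825B), 4.77 (43987A), 0.371 (43990A), 0.613 (43998A) and 0.765 (R26P123). The lowest Shh tumor was 13.1-fold above the highest Myc tumor, while the 2 sites of Myc tumors overlapped. For Sox11 the log2 fold change reached 7.22 (standard error 0.79, edgeR adjusted p = 1.26e-05), between 6.99 and 7.96 without single tumors. Every Myc tumor had more than 3 counts of Sox11, with 900 counts in 43987A.

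Sox4 (ENSMUSG00000076431.4, chr13:28948919-28953713, minus strand), the SoxC paralog of wider expression, was present in every tumor. Shh tumors had 120 TPM (29048), 294 (38594A), 282 (29050A), 324 (R26P98) and 208 (R26P87). Levels in intracranial Myc tumors ran from 10.8 to 73.5 TPM (median 31.2). Extracranial ones had 8.73 TPM (43825B), 78.4 (43987A), 47.7 (43990A), 55.2 (43998A) and 170 (R26P123). Of these Myc tumors only R26P123 reached the Shh range, above the tumor of 29048 and below the other 4. The difference of Sox4 came to a log2 fold change of 1.76 (standard error 0.50, edgeR adjusted p = 0.0132), and it was 2.12 without R26P123. The SoxC paralogs therefore differed in size of change, 7.22 for Sox11 and 1.76 for Sox4, and Sox12, the third paralog, was at 0.18 (standard error 0.37, edgeR adjusted p = 0.728).

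Sox1, Sox2 and Sox11 were the members for which each Shh tumor exceeded each Myc tumor. Such a gap was seen for 12.9% of the 21841 genes with counts in any tumor and a TPM value. The sequences before their start sites are shown because these are the members that separate every Shh from every Myc tumor. The RefSeq (GRCm38.p6) promoter table used here held 7 of the 10 genes, and the 250 bases before the start are chr8:12395269-12395518 (plus strand) for Sox1, chr3:34649745-34649994 (plus strand) for Sox2 and chr12:27342719-27342968 (minus strand) for Sox11. These starts are those of RefSeq and differ from the GENCODE starts of the positions above, so that most of the Sox1 window lies within the gene as GENCODE draws it. Each is written from 5′ to 3′ on the strand of the gene, with the GC boxes (GGGCGG) and CCAAT boxes (CCAAT) found on either strand in capitals.
Sox1: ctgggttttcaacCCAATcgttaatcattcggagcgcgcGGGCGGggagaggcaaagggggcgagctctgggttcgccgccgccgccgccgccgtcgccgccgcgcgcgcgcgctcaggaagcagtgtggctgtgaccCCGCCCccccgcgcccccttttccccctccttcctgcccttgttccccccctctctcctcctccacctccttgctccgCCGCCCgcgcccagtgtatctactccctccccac
Sox2: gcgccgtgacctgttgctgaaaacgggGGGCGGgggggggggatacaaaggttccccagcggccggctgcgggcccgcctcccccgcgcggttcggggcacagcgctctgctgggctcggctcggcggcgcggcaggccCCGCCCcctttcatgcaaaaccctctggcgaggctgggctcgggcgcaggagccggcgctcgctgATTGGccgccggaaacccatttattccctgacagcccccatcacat
Sox11: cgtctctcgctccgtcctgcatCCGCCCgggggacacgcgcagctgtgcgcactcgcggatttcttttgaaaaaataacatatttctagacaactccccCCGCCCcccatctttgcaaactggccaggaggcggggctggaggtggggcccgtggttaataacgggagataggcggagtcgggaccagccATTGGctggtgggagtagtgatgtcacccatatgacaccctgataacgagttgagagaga
Both boxes stood in all 3 windows, with 3 GC boxes before Sox1, 2 before Sox2 and 2 before Sox11, and 1 CCAAT box before each. Among the windows of 32851 genes, 32.7% held a GC box, 33.8% a CCAAT box and 11% both. Sox4 had 4 CCAAT boxes and no GC box, Sox8 had 2 GC boxes and no CCAAT box, and Sox21 and Sox5 had neither. The Sox5 window stands before an internal start, far within the gene as GENCODE draws it. None of these 7 windows held TATAAA (12.4% of all), the Sox core AACAAT (9.42%) or the octamer ATGCAAAT (1.60%) on either strand. No 2 matches overlapped. The ratio of observed to expected CpG was 0.987 for Sox1, 0.833 for Sox2 and 0.810 for Sox11, beside a median of 0.373 over all windows. These matches describe the sequence only.

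**Figure D2:**
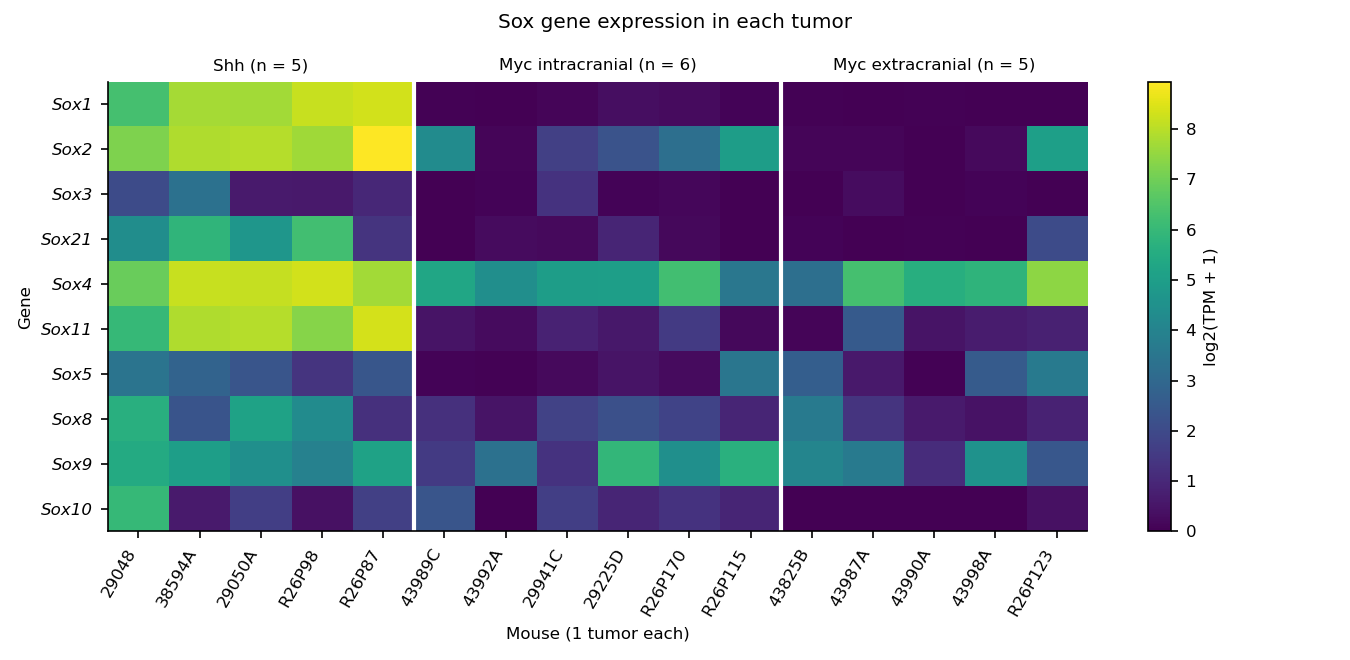
Expression of the 10 Sox genes (rows) in each of the 16 tumors (columns, named by mouse) as log2(TPM + 1), with white lines between groups. The Shh block is bright for Sox1, Sox2, Sox4 and Sox11, while Sox2 is visible in some Myc tumors, from 18.7 TPM in 43989C to 31.8 TPM in R26P123.

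Among the SoxE genes, Sox8 was higher in Shh tumors and Sox9 and Sox10 did not pass the test. Sox8 (ENSMUSG00000024176.10, chr17:25565892-25570686, minus strand) was at 48.9 TPM in 29048, 3.95 in 38594A, 34.7 in 29050A, 19.1 in R26P98 and 1.37 in R26P87. Intracranial Myc tumors ranged from 0.381 to 3.54 TPM (median 1.88). Among the extracranial ones were 11.8 TPM (43825B), 1.55 (43987A), 0.560 (43990A), 0.370 (43998A) and 0.806 (R26P123). Of the Shh tumors, 3 lay above all Myc tumors, and the lowest Shh tumor, R26P87, lay among them. The test gave a log2 fold change of 2.68 (standard error 0.80, edgeR adjusted p = 0.0174). Without 29048 it was 2.14 (adjusted p = 0.0705), which was the only omission of a single tumor that ended the call.

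Sox9 (ENSMUSG00000000567.5, chr11:112782224-112787760, plus strand) was expressed in all tumors. Shh tumors had 43.2 TPM (29048), 31.2 (38594A), 20.9 (29050A), 14.1 (R26P98) and 35.0 (R26P87). Intracranial Myc tumors had between 1.48 and 59.0 TPM (median 15.0), the highest being 29225D and then R26P115 at 50.3 TPM. Extracranial Myc tumors had 15.7 TPM (43825B), 11.7 (43987A), 1.21 (43990A), 22.6 (43998A) and 4.34 (R26P123). The Shh tumors lay close together, whereas Myc tumors spread on both sides of them. On the log2(TPM + 1) scale the SD was 0.62 in Shh (n = 5) and 1.68 in Myc tumors (n = 11). Its log2 fold change came to 0.12 (standard error 0.77, edgeR adjusted p = 0.918), and its sign turned when single tumors were left out. Of 16 cartilage genes, 3 were higher (Col2a1, Col9a1 and Col9a2) and 1 lower (Runx2, a factor of bone) in Shh tumors, beside 12.9% and 13.1% of all genes. Cartilage genes summed to 963 TPM in 29225D and 843 in R26P115, but Matn3 alone gave 864 TPM of the former and Col9a3 832 TPM of the latter. Col2a1, the main cartilage collagen, was at 3.51 and 1.17 TPM there. In 43990A, the tumor with the least Sox9, the sum was 791 TPM, of which Matn3 gave 774.

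Sox10 (ENSMUSG00000033006.10, chr15:79154908-79165240, minus strand) was at 62.2 TPM in the Shh tumor of 29048, 0.564 in 38594A, 2.13 in 29050A, 0.327 in R26P98 and 2.20 in R26P87. For intracranial Myc tumors the range was 0 to 4.11 TPM (median 1.20), the highest being 43989C. Extracranial Myc tumors had no counts in 43825B, 43987A, 43990A and 43998A and 0.314 TPM, from 12 counts, in R26P123. The Shh tumor of 29048 stood alone and the other 4 lay within the range of the Myc tumors. The log2 fold change was 3.38 (standard error 1.45, edgeR adjusted p = 0.0833), while without 29048 it was 0.02 (standard error 1.52, adjusted p = 0.992). That tumor had 14 of 14 oligodendrocyte markers at 1 TPM or more, summing to 2742 TPM, beside 61.8 to 215 TPM in the other Shh and 68.0 to 412 TPM in the Myc tumors. Of the 412 TPM, in the intracranial Myc tumor of 43992A, Pdgfra alone gave 384, and Mog and Mobp were at 0. Mbp, which encodes a protein of myelin, was at 1971 TPM in 29048. Of 15 Schwann cell and myelin genes, 12 reached 1 TPM in 29048 and 14 in 43989C, where Mbp was at 26.6 TPM and Sox10 at 4.11 TPM. Their part in the Sox10 level was not tested. Melanocyte genes, which Sox10 also serves, were called lower in 1 of 9 cases (Mitf, log2 fold change -2.49) and higher in 0, beside 13.1% and 12.9% of all genes.

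**Figure D3:**
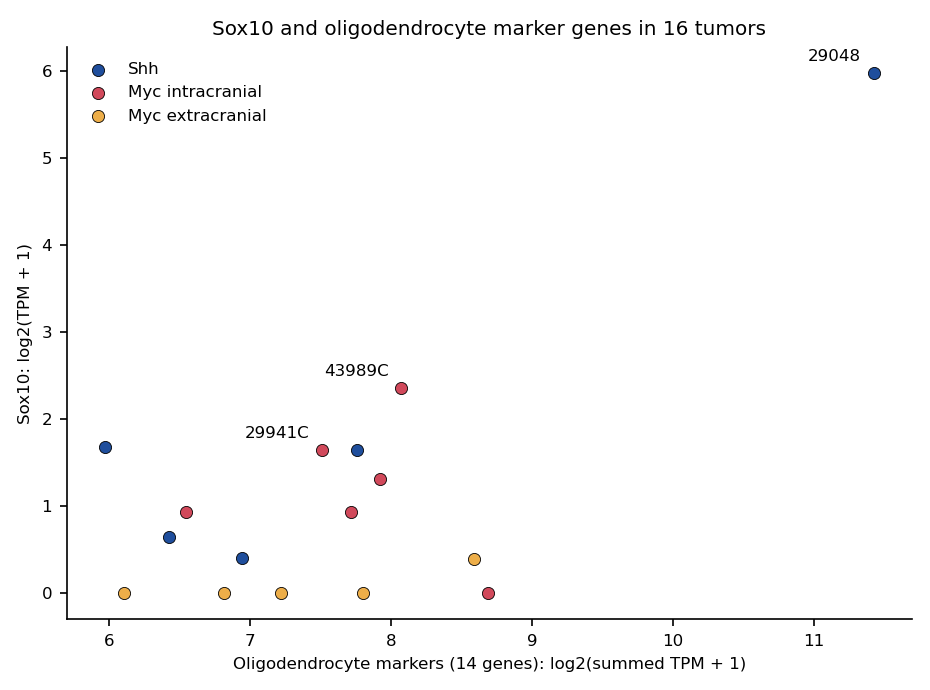
Sox10 as log2(TPM + 1) against the summed TPM of 14 oligodendrocyte markers, as log2(sum + 1), in 16 tumors coloured by group. The Shh tumor of 29048, with 62.2 TPM of Sox10 and a marker sum of 2742 TPM, lies apart from the other 15 tumors, which reach at most 4.11 TPM of Sox10. In 43992A, the Myc tumor with the highest marker sum, Pdgfra alone gave 384 of 412 TPM.

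Sox5 (ENSMUSG00000041540.16, chr6:143828425-144781977, minus strand) was at 9.85 TPM in 29048, 6.28 in 38594A, 4.11 in 29050A, 1.54 in R26P98 and 4.23 in R26P87. Intracranial Myc tumors had between 0.0308 and 10.5 TPM (median 0.182), with R26P115 at the top and the next at 0.398 TPM. Extracranial Myc tumors had 5.35 TPM (43825B), 0.543 (43987A), 0.0295 (43990A), 4.99 (43998A) and 11.7 (R26P123). Myc tumors fell at both ends, with 4 of 11 at 1 TPM or more and 7 of 11 below every Shh tumor. The log2 fold change was 0.17 (standard error 1.20, edgeR adjusted p = 0.927). Its SoxD relatives Sox6 and Sox13 were higher in Shh tumors, by log2 fold changes of 4.76 (standard error 0.71, edgeR adjusted p = 0.000127) and 5.15 (standard error 0.45, adjusted p = 1.98e-06). Sox13 was at 68.5 to 399 TPM in Shh and 1.95 to 14.6 TPM in Myc tumors, and Sox6 at 7.86 to 17.1 and 0.0122 to 1.14 TPM, so that neither overlapped.

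Across the 9 other Sox genes, 5 were higher in Shh tumors (Sox6, Sox13, Sox14, Sox17 and Sox18), 1 was lower (Sox15, log2 fold change -2.98, standard error 1.01) and Sox7, Sox12 and Sox30 did not pass. Sox17 and Sox18 act in endothelium, and their log2 fold changes were 1.51 and 1.52. Sox14, with 4.07, was low throughout, with at most 0.252 TPM in Myc tumors. Of 20 neural progenitor genes, 12 were higher, with Hes5 (11.52) and Rfx4 (9.33) foremost, 1 was lower (Vim, -2.53) and 7 did not pass, with a median log2 fold change of 3.03. Of 14 early neuron genes, 13 were higher, among them Neurog2 (9.80), and Stmn2 did not pass. Of 21 neural crest regulators, 1 was higher (Ednrb, 3.90), 3 were lower (Alx1, -7.67, Snai1, -3.31, and Ets1, -1.97) and 17 did not pass, with a median of -0.78. Of 15 Schwann cell and myelin genes, 5 were higher, among them L1cam (4.81), 1 was lower (Egr2, -2.96) and 9 did not pass. Of 14 oligodendrocyte markers, 9 were higher, with Mobp (6.25) and Mog (6.08) foremost, and 1 was lower (Pdgfra, -2.50). The tumor of 29048 stood apart here, and without it 3 of the 14 oligodendrocyte markers were higher and 0 lower, with a median log2 fold change of -0.03. Likewise, without it 1 of the 15 Schwann cell and myelin genes was higher and 3 were lower, and of the 9 other Sox genes 4 were higher and 0 lower, Sox17 (edgeR adjusted p = 0.0536) and Sox15 (0.0705) falling short. The counts for neural progenitor, early neuron and neural crest genes were the same without it. Over all genes, 12.9% were higher and 13.1% lower with all tumors, and 11% and 11.7% without 29048.

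The levels per length (TPM) gave an order of the genes within each group. In Shh tumors the medians were 282 TPM for Sox4, 234 for Sox2, 233 for Sox11 and 213 for Sox1. Sox4 exceeded Sox2 in 3 of 5 tumors and Sox11 exceeded Sox1 in 3 of 5, so that these neighbours did not separate, whereas Sox2 exceeded Sox11 in 5 of 5, if narrowly in 38594A and 29050A. Sox1 exceeded Sox9 (31.2 TPM) in 5 of 5. Below them Sox9, Sox21 (25.0), Sox8 (19.1) and Sox5 (4.23) changed places between tumors. Sox10 (2.13) and Sox3 (1.02) had the lowest medians, although Sox10 exceeded Sox9 in 29048 and Sox3 exceeded Sox5 in 38594A. In Myc tumors the medians were 38.1 TPM for Sox4, 11.7 for Sox9, 2.27 for Sox2 and 1.37 for Sox8, and the other 6 were under 0.5 TPM. Sox4 exceeded Sox9 in 8 of 11 Myc tumors and Sox9 exceeded Sox2 in 8 of 11.

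The 10 genes together summed to 595 to 1393 TPM in Shh tumors and 30.6 to 223 TPM in Myc tumors. The SoxB1 family made up 38.5% to 58.2% of that sum in Shh tumors and 0.0724% to 29.2% in Myc tumors. Sox4 alone made up 15.0% to 29.8% in Shh and 10.4% to 95.5% in Myc tumors, with medians of 26.5% and 67.0%. SoxE genes made up 2.77% to 25.9% in Shh, 29048 being the highest, and 2.45% to 65.8% in Myc tumors. The most abundant member was Sox4 in 3 and Sox2 in 2 of the Shh tumors, and Sox4 in 8 and Sox9 in 3 of the Myc tumors. The 3 led by Sox9 were 29225D, R26P115 and 43825B, which come from both sites.

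**Figure D4:**
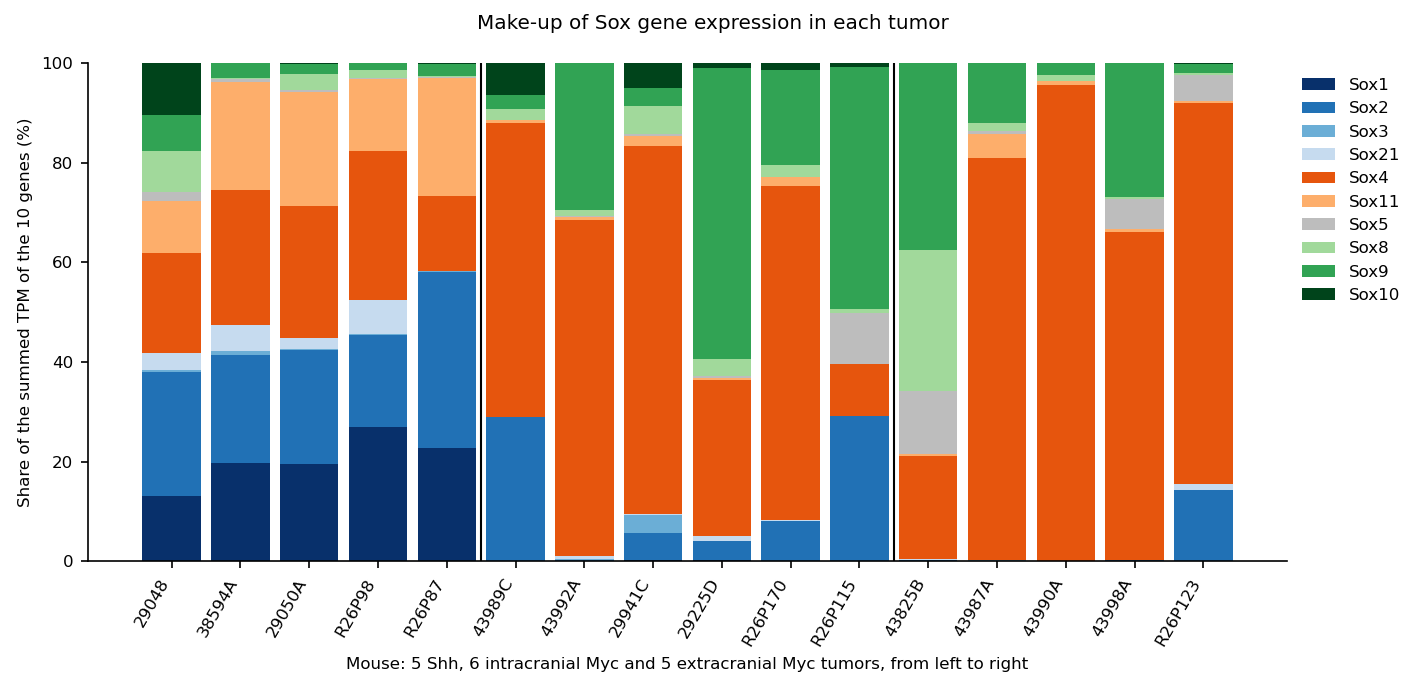
Share of each Sox gene in the summed TPM of the 10 genes, as stacked bars per tumor (5 Shh, 6 intracranial Myc and 5 extracranial Myc tumors from left to right). SoxB1 genes (dark blues) hold 38.5% to 58.2% of the bar in Shh tumors, and Sox4 or Sox9 leads in all 11 Myc tumors.

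Each site of Myc tumors was then set against the same 5 Shh tumors, which the comparisons share. Against the 6 intracranial Myc tumors, 6 of the 10 genes were higher in Shh tumors, where 11% of genes were called higher. Sox1 (log2 fold change 10.34), Sox11 (7.78), Sox21 (6.66), Sox2 (4.01), Sox8 (3.06) and Sox4 (2.33) passed, and Sox3 did not (2.74, edgeR adjusted p = 0.140). Against the 5 extracranial tumors, 5 of the 10 were higher, where 13.5% of genes were. These were Sox1, Sox10 (7.21, standard error 2.11, edgeR adjusted p = 0.0252), Sox11 (6.74), Sox21 (5.35) and Sox3 (4.79). Sox2 (4.91, standard error 1.82, edgeR adjusted p = 0.0624) and Sox4 (1.29, standard error 0.60, adjusted p = 0.123) fell short there, with R26P123 high for both. Sox8 fell short there as well, with 43825B high at 11.8 TPM. Without 29048, in a fit added after seeing the data, 3 of the 10 passed against the extracranial tumors (Sox1, Sox3 and Sox11), where 11.9% of genes were called higher. Sox10 then had 3.86 (standard error 1.52, edgeR adjusted p = 0.0844) and Sox21 had 5.50 (standard error 1.84, adjusted p = 0.0501). The lowest of the other 4 Shh tumors, R26P98, had 0.327 TPM of Sox10 from 8 counts, and the extracranial tumor of R26P123 had 0.314 TPM from 12 counts, which do not differ beyond counting error. Sox5 and Sox9 passed against neither site. Among the 7 tumors induced at E6 (5 Shh and 2 Myc), 4 of the 10 were higher, namely Sox1 (10.33), Sox21 (7.84), Sox11 (7.15) and Sox2 (5.37), where 6.29% of genes were called higher.

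**Figure D5:**
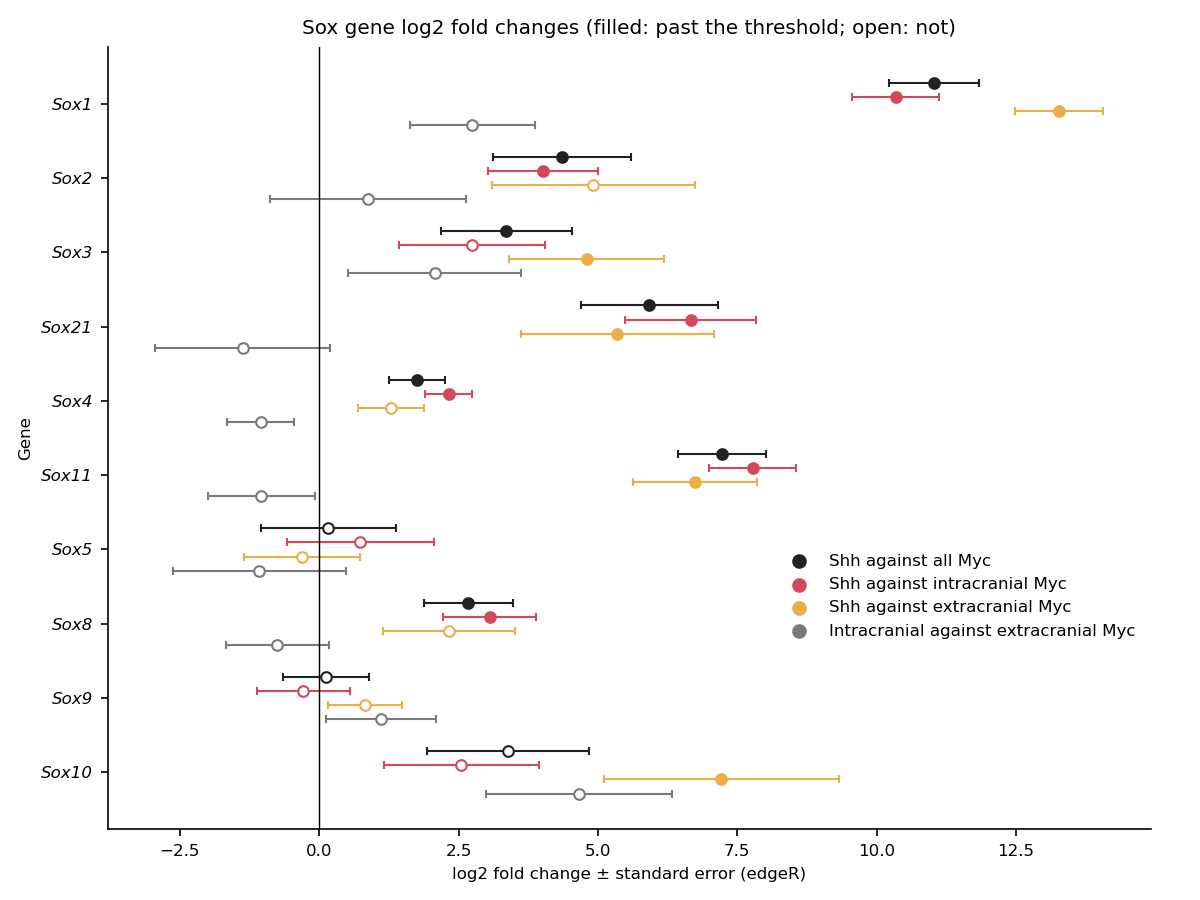
log2 fold changes (edgeR) with their standard errors for the 10 Sox genes in 4 comparisons. Filled points passed the threshold and open points did not. Sox1, Sox11 and Sox21 are filled for Shh tumors against both sites of Myc tumors, and all 10 points of intracranial against extracranial Myc tumors are open.

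Next, the 6 intracranial Myc tumors were compared with the 5 extracranial ones. None of the 10 genes passed with edgeR, which called 1 of 21261 genes (0.00470%), and none passed with DESeq2, which called 490 genes and gave no adjusted p for Sox3 and Sox21, or with limma on log2(TPM + 1), which called 1 gene. Of the 10, 2 had an unadjusted p under 0.05, as did 2606 of all genes. The gene called was Ttc39aos1, named after its value was seen (log2 fold change 4.86, standard error 0.55, adjusted p = 0.0356). Sox10 had the largest difference of the 10, with more than 3 counts in 5 of 6 intracranial and 1 of 5 extracranial tumors (log2 fold change 4.66, standard error 1.67, edgeR adjusted p = 0.354). It was 9.27 without R26P123, with the other 4 extracranial tumors at 0, so that this fitted value is no bound. Sox1 was at 2.75 (standard error 1.12, edgeR adjusted p = 0.376), on 30 counts or fewer per tumor. The value of Sox2 hung on a single tumor, being 0.87 (standard error 1.75, adjusted p = 0.866) with R26P123 and 6.92 (standard error 1.63, adjusted p = 0.489) without it. Likewise, Sox5 was at -1.08 (adjusted p = 0.802) with R26P115 and at -4.72 (adjusted p = 0.375) without it. The direction also turned for Sox11 (0.52 without 43987A), Sox21 (3.16 without R26P123), Sox8 (1.17 without 43825B) and Sox3 (-0.50 without 29941C). With all 11 tumors, Sox4 was at -1.05 (adjusted p = 0.493), Sox11 at -1.04 (0.677), Sox21 at -1.38 (0.730), Sox8 at -0.75 (0.754), Sox3 at 2.07 (0.588) and Sox9 at 1.10 (0.671).

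The Myc tumors were finally used to ask whether the members vary together. Sox2, Sox4, Sox11, Sox5, Sox8, Sox9 and Sox10 had more than 3 counts in at least 6 of the 11 tumors, which gave 21 pairs. None passed a permutation test of Pearson's r after adjustment over the 21 pairs (smallest adjusted p = 0.465), and none by Spearman's rho. Sox2 and Sox10 had r = 0.64 (permutation p = 0.0356, adjusted p = 0.465) and rho = 0.69 (permutation p = 0.0251, adjusted p = 0.263). Without the 2 tumors farthest from the median of Sox2, R26P123 and R26P115, r was 0.93. Sox4 and Sox11 had r = 0.62 (permutation p = 0.0443, adjusted p = 0.465) and rho = 0.78 (permutation p = 0.00659, adjusted p = 0.138), and r was 0.74 without the 2 tumors farthest from the median of Sox4. For Sox9 and the other 6, r lay between -0.30 and 0.37.

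Over the same 11 Myc tumors, the genes most like Sox2 by Pearson's r were Zcchc12 (r = 0.90), Epb41l4a (0.89) and Fgfr3 (0.88), out of 14270 genes whose mean count reached 50. Without the 2 tumors farthest from the median of Sox2 these were 0.82, 0.78 and 0.83. Sox9 was most like Hk1 (0.85), Vegfb (0.85) and Cd99l2 (0.84), and Sox10 most like Tmem28 (0.91), Ankrd33b (0.89) and Cdh26 (0.89), and the last 3 were highest in 43989C, as was Sox10. These are the top values of many, each tumor gives both genes from the same library, and they are given as a description without a test.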

How the data were processed

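Total polyadenylated RNA of 16 mouse tumors was sequenced by the authors as stranded, paired-end libraries. Per the labels, the submitters' processing notes name Trim Galore, FastQC, STAR 2.5.3a, Picard and mm10, and the gene annotation is not given in the sources used here. The authors deposited raw counts per gene and, from the same reads, TPM values (scaled by gene length and library). Total counts of 17889968 to 110177889 per tumor limit low values, and values of 3 counts or fewer were treated as at the floor, which covers counting error only.

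Groups followed the labelled tumor location. Counts were tested with edgeR 4.0.16 (TMM, glmQLFit, glmQLFTest) in R 4.3.3 over all genes with a count in any tumor compared, with Benjamini-Hochberg adjustment and a call where the adjusted p was below 0.05 and the log2 fold change exceeded 1 in size. This test gives no standard error. Those printed with edgeR values are the size of the log2 fold change over the square root of the test's F statistic. The code was tested on simulated counts. Correlations used log2(TPM + 1) and 100000 permutations, two-sided. Alternatives were DESeq2 1.42.0, limma 3.58.1 on log2(TPM + 1) and log2(TPM + 0.1), other filters and scalings, and subsets of tumors. Positions came from GENCODE M21 (GRCm38) and promoters from RefSeq. Gene lists and the 10 members were chosen with earlier results of these data known. All 10 members were named, and from each list the 2 highest and 2 lowest log2 fold changes among genes that passed with a mean count of at least 50. Ets1, Mitf, Col2a1, Col9a1, Col9a2, Runx2 and single markers were named to complete a count or a tumor's marker level, and some genes that the rule would name are not reported here. The labels do not say that any tumors share a mouse or batch, and p-values measure the spread between these tumors.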

Additional observations from a re-analysis of the deposited data

Results flagged for a closer look

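In 8 of 29 sets of values (1 gene in 1 group of 5 or 6 tumors, on the log2(TPM + 1) scale), a single tumor stood apart by Dixon's test at the 95% level, which chance does in about 1 of 20 sets of continuous values. That rate does not hold for sets with values tied at or near 0 counts, such as Sox10 in extracranial Myc tumors, where 4 of 5 are at 0 and any count would stand apart. All 8 were high. The extracranial Myc tumor of R26P123 was high for Sox2 (5.03, or 31.8 TPM beside at most 0.180 in the other 4), Sox21 (2.03, or 3.09 TPM beside at most 0.0552) and Sox10 (0.39, or 0.314 TPM beside 0). The same tumor stood apart in keratinocyte and oral epithelium markers, whose part was not tested. The intracranial Myc tumor of R26P115, rich in choroid plexus genes, was high for Sox5 (3.53, or 10.5 TPM beside at most 0.398). The intracranial Myc tumor of 29941C was high for Sox3 (1.32, or 1.5 TPM beside at most 0.115), and that of 29225D for Sox21 (0.93, or 0.903 TPM beside at most 0.211). The extracranial Myc tumor of 43825B was high for Sox8 (3.68, or 11.8 TPM beside at most 1.55). The Shh tumor of 29048 was high for Sox10 (5.98, or 62.2 TPM beside at most 2.20).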

How the results depend on the processing

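No paired analysis was possible because no mouse contributed more than 1 tumor. Of the members called higher in Shh tumors, Sox1, Sox2, Sox21, Sox4 and Sox11 passed in each fit without 1 tumor, with DESeq2, both limma fits, DESeq2's size factors, edgeR's filter on low counts and with the naming scheme of the mice as a covariate. The count of genes called was 5689, between 4766 and 6649 without single tumors, and 3533 (4 members) at E6 alone. It was 0 (0 members) among the R26P mice alone (2 Shh, 3 Myc tumors), where 3514 genes had an unadjusted p under 0.05 and Sox5 (-1.99), Sox9 (-0.72) and Sox10 (-0.13) turned sign. Sox9 turned to -0.29 against intracranial and Sox5 to -0.30 against extracranial Myc tumors alone. In the latter fit without 29048 as well, chosen after seeing the data, 3 members passed and Sox5 was at -0.67. Without single tumors Sox5 ran from -0.20 to 0.64 and Sox9 from -0.072 to 0.47. limma on log2(TPM + 1) moved the median log2 fold change of all genes from -0.15 to 0.20 and the calls to 4082 higher and 1324 lower, with the 7 members still higher. Between Myc sites the genes called were 1, 490 with DESeq2 (no member), 2 with limma on log2(TPM + 0.1), 0 at E8 alone, 0 among numbered mice and 0 to 3 without single tumors. Signs there turned for Sox21 (1.61 with the name scheme, 3.60 in numbered mice, 0.077 with the smaller pseudocount), Sox8 (0.18 with that pseudocount, 0.67 at E8) and, without single tumors, for Sox21 (-2.42 to 3.16), Sox8 (-1.06 to 1.17), Sox11 (-1.71 to 0.52) and Sox3 (-0.50 to 3.74). The cause was not tested. Of 21 pairs of members, 0 passed without R26P115 or on log2 CPM. Sox1, Sox3, Sox10 and Sox21 lie at or under 3 counts in many Myc tumors, where differences between tumors are not detectable.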

Other observations

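Among markers of other cells that Sox genes serve, 3 of 8 astrocyte markers and 6 of 10 mature neuron markers were called higher in Shh than in Myc tumors by edgeR, and none lower, beside 12.9% of all genes higher. Without the Shh tumor of 29048, whose sums of 2753 and 4332 TPM stood above the 473 and 1515 TPM of the next Shh tumors, 1 of 8 and 4 of 10 were higher, beside 11% of all genes. With all tumors, the median log2 fold changes of these lists were 2.77 and 3.46, and without 29048 they were 0.96 and 1.86. Of 8 endothelial markers, 2 were lower (1 without 29048) and 6 did not pass (median -0.59), beside 13.1% of all genes lower (11.7% without 29048). Between intracranial and extracranial Myc tumors no gene of these 3 lists was called.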
